A study of Rattus norvegicus with 43 samples.

Results

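Expression of 10 genes of mucosal innate defence was followed across the 6 diets of a feeding study in rats. The genes were the antiprotease Slpi, the cytokines Il18 and Il1b, the metalloprotease Adamdec1, the oxidant-producing enzymes Nos2 and Duox2, the receptor Tlr4, the siderophore-binding lipocalin Lcn2 and the antimicrobial lectins Reg3b and Reg3g. They were taken by gene symbol from an array on which 14506 symbols had a probe set of their own, and each of the 10 had exactly 1 probe set. Distal colon was taken from 11-week-old Sprague Dawley rats, and each of the 43 arrays came from a different animal (rats with too little or too poor RNA were not arrayed), so p-values measure the spread between animals. The diets were butyrylated high-amylose maize starch (HAMSB, n = 9), high-amylose wheat (HAW, n = 8), high-amylose maize starch (HAMS, n = 8), low-amylose wheat (LAW, n = 6), low-amylose maize starch (LAMS, n = 7) and a control diet (CON, n = 5). This reading of the codes, and of the first 5 as Western-type diets, comes from knowledge of the study. High-amylose starch resists digestion in the small intestine and is fermented in the colon, and butyrylated starch also carries bound butyrate there.

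The colon lining meets dense bacteria behind mucus. Epithelial cells and the phagocytes beneath them sense bacterial products through receptors such as Tlr4, which recognises lipopolysaccharide with its partners Ly96 and Cd14. Signals from these receptors raise antimicrobial proteins (Reg3b, Reg3g, Lcn2), protease inhibitors (Slpi) and enzymes that make nitric oxide (Nos2) or hydrogen peroxide (Duox2), while the inflammasome cuts Il1b and Il18 precursors into active cytokines. Il18 is made at steady state by colon epithelium, and Adamdec1 is known as a product of macrophages and of fibroblasts of the intestinal mucosa.

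Values are RMA expression values on the log2 scale, where a difference of 1 is a 2-fold change, and differences are given ± their standard error. A gene was tested when its median over the 43 arrays reached a low-signal floor of 4.79, the level that 25% of singly named probe sets fell under, which left 10828 genes. Slpi, Il18, Adamdec1, Nos2, Duox2, Il1b and Tlr4 reached the floor, and Lcn2, Reg3b and Reg3g did not. Markers of the labelled tissue lay above the floor: 11 of 11 absorptive colonocyte genes, 7 of 7 goblet cell genes and 8 of 8 smooth muscle genes on the array reached it. So did 10828 of all 14506 symbols, so reaching the floor does not by itself identify the tissue. Arrays differed in 3 further ways. The mean of 12 tested genes of B cells and germinal centres, called the lymphoid level here, spanned 5.50 to 8.80 in HAMS, with a median of 7.92, against 5.40 to 8.23 in LAMS, with a median of 5.45 (Ms4a1, Cd72 and Fcer2 of that list were under the floor). The interquartile range of all values on an array averaged 3.01 ± 0.14 in HAMS and 3.21 ± 0.09 in LAMS (SD). The array names follow 3 styles of writing, and all 8 HAMS arrays share 1 of them with 5 HAMSB, 3 HAW, 1 LAW and 3 LAMS arrays and no CON array. In RNA from whole tissue, fewer cells of a type and less RNA per cell cannot be told apart.

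Promoter sequence, the 250 bases before the annotated start in RefSeq build GRCr8, is given for 4 of the genes because, after removal of diet means, Il18, Duox2 and Tlr4 ran together over the 43 rats while Il1b ran against them. RefSeq promoters were matched for 7 of the 10 genes (not for Slpi, Adamdec1 and Nos2). Each is written 5′ to 3′ on its own strand, with matches to the searched motifs in capitals. The motifs, searched on both strands, were the TATA box TATAAA, the CCAAT box, the AP-1 element TGANTCA, the STAT element TTCNNNGAA and the kappaB element. Il18 lies at chr8:59801822-59802071, plus strand, Duox2 at chr3:129698754-129699003, minus strand, Tlr4 at chr5:85160997-85161246, plus strand, and Il1b at chr3:137036582-137036831, minus strand.
Il18: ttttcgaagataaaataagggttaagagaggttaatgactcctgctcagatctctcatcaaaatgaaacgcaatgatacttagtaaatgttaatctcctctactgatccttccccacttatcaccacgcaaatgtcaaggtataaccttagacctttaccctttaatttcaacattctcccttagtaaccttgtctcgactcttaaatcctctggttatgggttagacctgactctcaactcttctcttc
Duox2: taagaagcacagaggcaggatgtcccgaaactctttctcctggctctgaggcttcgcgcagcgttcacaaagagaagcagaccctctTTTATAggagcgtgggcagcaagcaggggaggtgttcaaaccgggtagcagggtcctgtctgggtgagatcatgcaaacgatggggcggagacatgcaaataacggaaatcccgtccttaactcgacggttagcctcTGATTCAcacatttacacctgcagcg
Tlr4: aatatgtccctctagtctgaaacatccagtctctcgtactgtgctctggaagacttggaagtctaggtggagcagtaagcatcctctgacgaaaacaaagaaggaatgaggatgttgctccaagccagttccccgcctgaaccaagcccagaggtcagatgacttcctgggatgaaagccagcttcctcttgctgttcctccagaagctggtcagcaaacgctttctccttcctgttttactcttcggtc
Il1b: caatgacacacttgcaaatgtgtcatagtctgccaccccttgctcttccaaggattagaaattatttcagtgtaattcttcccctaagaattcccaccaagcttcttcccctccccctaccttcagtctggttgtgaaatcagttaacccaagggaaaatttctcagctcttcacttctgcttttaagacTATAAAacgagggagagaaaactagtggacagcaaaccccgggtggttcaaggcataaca
In these windows the letters of the Il18 and Tlr4 promoters held none of the 5 motifs. The Duox2 promoter held an AP-1 match that begins 26 bases before the start and a TATAAA match on the opposite strand that begins 163 bases before it. The Il1b promoter held TATAAA from 60 bases before the start. Among 33469 promoters of the same length, 12.9% held TATAAA, 34.0% the CCAAT box, 6.34% the AP-1 element, 7.67% the STAT element and 3.54% the kappaB element. The 3 promoters whose genes ran together shared no match to these motifs.

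By the F test across diets, 4 of the 7 tested genes differed between diet groups, namely Slpi, Il18, Adamdec1 and Nos2. Their adjusted p were 0.0274, 0.00709, 0.00544 and 0.0243 (limma), where 31% of all tested genes passed. Diet was partly tied to name style on these arrays, and the cause of the differences was not tested. Fitting name style as a block left 2 of the 7 genes passing the F test, where 12.9% of all genes passed. Adding lymphoid level to that fit left 0, where 5.22% of all genes passed. With the lymphoid level alone 5 of the 7 passed, as did 27.6% of all genes. HAMS minus LAMS, which asks what amylose does in a maize diet, called the same 4 genes: Slpi and Nos2 rose and Il18 and Adamdec1 fell, against a background of 14.2% of genes (2.13% higher and 12.1% lower). HAMSB minus HAMS, which asks what butyrylation adds, called Il18 alone, which rose (background 17%, with 14.5% higher and 2.58% lower). HAW minus HAMS, high-amylose wheat against high-amylose maize, called Il18 and Adamdec1, both higher in HAW (background 13.3%, with 11% higher and 2.33% lower). These 3 comparisons share the HAMS arrays, so they are not independent of each other.

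None of the 7 genes passed with limma in 5 other comparisons. In HAMSB minus LAMS 6.84% of all genes passed (2.2% higher and 4.65% lower) and 3 of the 7 had an unadjusted p under 0.05. In LAMS minus CON, LAW minus LAMS and HAW minus LAW 0% of all genes passed, while 935, 188 and 209 genes had an unadjusted p under 0.05, among them 0, 1 and 0 of the 7. The test of whether the amylose effect differed between wheat and maize called 0.0277% of genes and none of the 7, of which 5 had an unadjusted p under 0.05, as did 1662 genes in all. The median difference of the 7 genes in HAMS minus LAMS was -0.20, against -0.09 over all tested genes, and the median size of the difference was 0.56 against 0.18. Their within-diet SD ran from 0.24 (Nos2) to 0.98 (Slpi), against a median of 0.24 over all tested genes. Where no gene passed, the median size was 0.16 against 0.08 in LAW minus LAMS and 0.13 against 0.08 in HAW minus LAW. In LAMS minus CON it was 0.04 against 0.11.

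**Figure D1:**
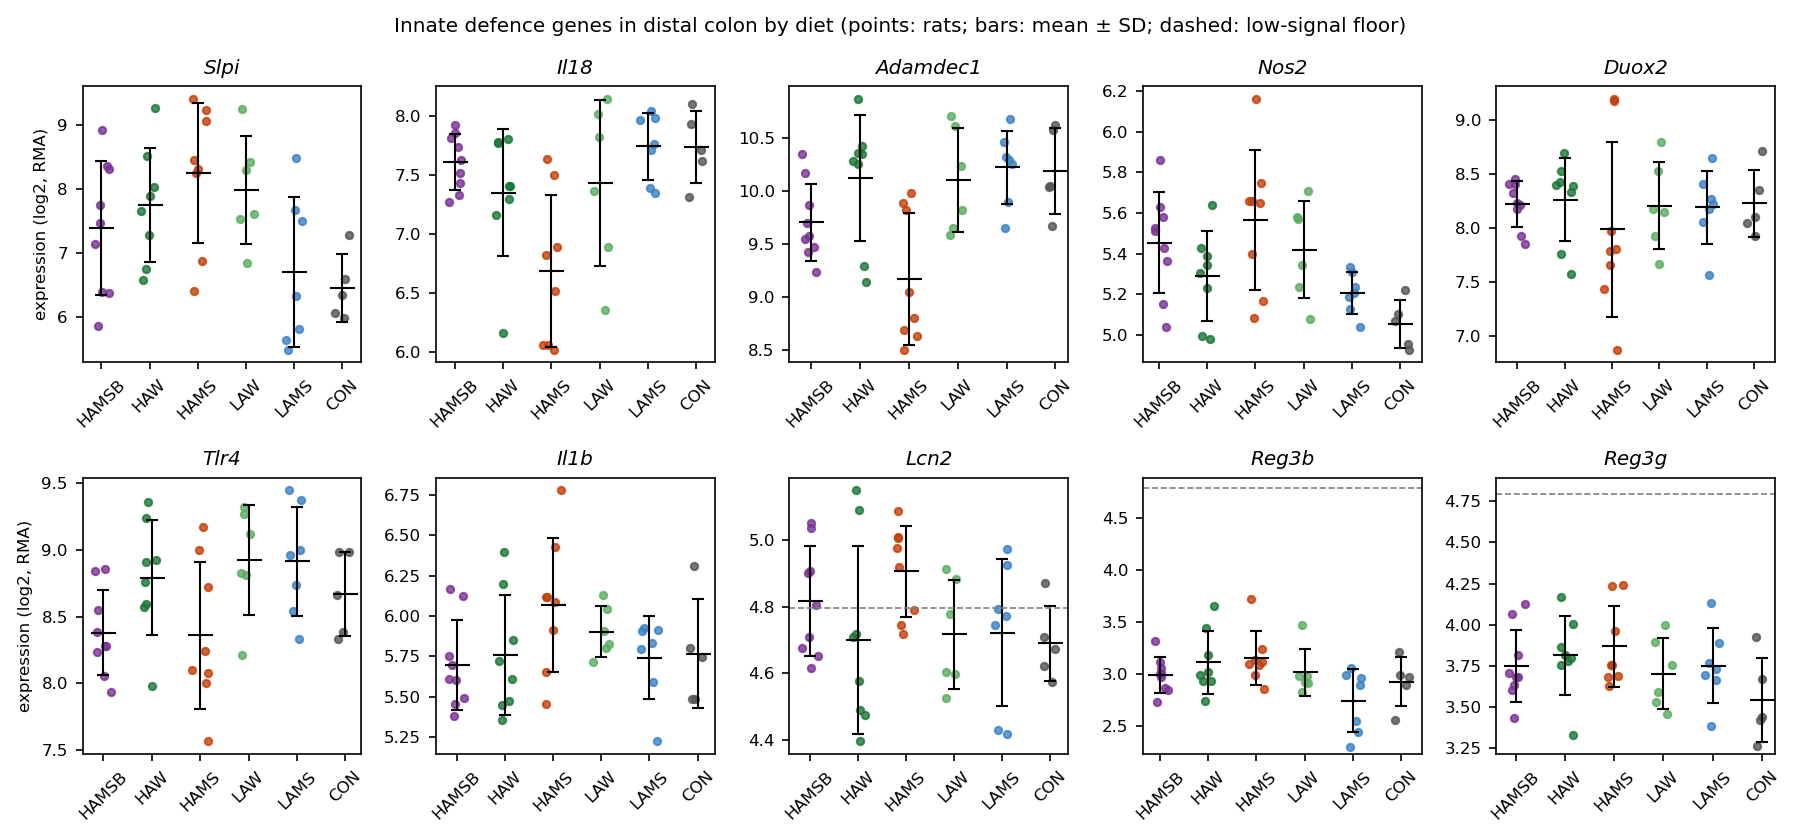
Expression (log2, RMA) of the 10 genes in every rat by diet, from HAMSB at the left to CON at the right of each panel. Points are rats, bars the mean ± SD, and the dashed line the low-signal floor of 4.79. Il18 and Adamdec1 have their lowest diet means in HAMS (6.69 and 9.17), Slpi and Nos2 their highest (8.26 and 5.57), and all Reg3b and Reg3g values lie under the floor.

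Slpi encodes secretory leukocyte peptidase inhibitor, an antiprotease of mucosal surfaces that also has antimicrobial activity. It had the widest range of diet means of the 10 genes. In HAMS the 8 rats ran from 6.40 to 9.42 with a median of 8.39, and the 7 LAMS rats from 5.48 to 8.49 with a median of 6.33. The groups overlapped: 3 HAMS rats lay above every LAMS rat and 4 LAMS rats below every HAMS rat. Slpi averaged 8.26 ± 1.09 in HAMS and 6.70 ± 1.18 in LAMS (SD), a rise of 1.55 ± 0.48 (limma, adjusted p = 0.0293).

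Slpi ran from 5.85 to 8.92 in HAMSB (median 7.46), from 6.58 to 9.27 in HAW (median 7.77) and from 6.84 to 9.26 in LAW (median 7.95). The 5 CON rats had 5.97, 6.05, 6.34, 6.59 and 7.29. The diet means ordered as HAMS, LAW, HAW, HAMSB, LAMS and CON from high to low, and no step between neighbours exceeded the within-diet SD of 0.98. Only 0.887% of all tested genes had a larger within-diet SD, and the median gene had 0.24. LAW minus LAMS was 1.29 ± 0.52 with an unadjusted p of 0.0165 and an adjusted p of 1.00 (limma), with 4 LAMS rats below every LAW rat. HAMSB minus HAMS was -0.86 ± 0.45 (adjusted p = 0.166), with a 95% interval from -1.77 to 0.05. It was -1.38 with name style as a block (adjusted p = 0.0295) and passed, and with the lymphoid level in the model -0.35 (adjusted p = 0.770). Within the 1 name style common to HAMSB, HAMS and LAMS, Slpi averaged 6.81 on 5 HAMSB arrays, 8.26 on 8 HAMS arrays and 6.88 on 3 LAMS arrays. There HAMSB minus HAMS was -1.44 ± 0.50 (adjusted p = 0.0529), and HAMSB minus LAMS was -0.07, against 0.69 over all arrays.

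HAMS minus LAMS for Slpi was 1.85 with name style as a block (adjusted p = 0.0220) and 1.11 with the lymphoid level alone in the model (adjusted p = 0.100). The call was lost in 7 of 15 fits that left out 1 rat: LAMS replicate 1, 3 or 6 or HAMS replicate 2, 6, 7 or 8, with differences between 1.35 and 1.55 and the highest adjusted p, 0.0774, without LAMS replicate 6. The array also carries probe sets for 2 annotated Slpi pseudogenes, and whether their transcripts bind the Slpi probes was not tested. Slpi-ps1 rose by 0.47 ± 0.14 in HAMS against LAMS (adjusted p = 0.0293), and Slpi-ps2 differed by 0.30 ± 0.11 (adjusted p = 0.0625). Over the 43 rats, diet means removed, their Pearson correlations with Slpi were 0.36 and -0.06, given as a description.

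Il18 encodes interleukin-18, a cytokine of the interleukin-1 family that inflammasomes activate. In HAMS it ran from 6.02 to 7.63 with a median of 6.67, and in LAMS from 7.35 to 8.04 with a median of 7.76. The groups touched at their edges: 6 of 8 HAMS rats lay below every LAMS rat. The means were 6.69 ± 0.64 in HAMS and 7.74 ± 0.28 in LAMS (SD), a fall of 1.05 ± 0.24 on the log2 scale (limma, adjusted p = 0.00811), and the call was kept in all 15 fits that left out 1 rat of either diet.

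In HAMSB the 9 rats had Il18 between 7.27 and 7.92 (median 7.62), the narrowest spread of any diet at an SD of 0.24. Of the 8 HAMS rats 6 lay below every HAMSB rat, and Il18 was 0.92 ± 0.22 higher in HAMSB (adjusted p = 0.00583), a call that all 17 fits without 1 rat of either diet kept. In HAW it ran from 6.16 to 7.80 (median 7.40), which was 0.66 ± 0.23 above HAMS (adjusted p = 0.0495). That call was lost in 12 of 16 fits without 1 rat, the exceptions being HAMS replicates 1, 3 and 5 and HAW replicate 8, with values between 0.57 and 0.69 where it was lost and the highest adjusted p, 0.117, without HAMS replicate 6. With name style as a block HAW minus HAMS was 0.39 (adjusted p = 0.295), where 7.43% of all genes passed.

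Il18 in LAW ran from 6.35 to 8.14 (median 7.59), and the CON rats had 7.31, 7.62, 7.71, 7.93 and 8.10. From high to low the diet means ran LAMS, CON, HAMSB, LAW, HAW and HAMS, and the step of 0.66 from HAW down to HAMS was the only one over the within-diet SD of 0.48. Among the diets above HAMS, LAMS minus CON was 0.01 with a 95% interval from -0.54 to 0.55, HAMSB minus LAMS -0.13 (-0.60 to 0.34) and HAW minus LAW -0.08 (-0.59 to 0.42). The difference between both amylose effects, wheat minus maize, was 0.97 ± 0.34 for Il18 (adjusted p = 0.200), so a difference between the grains did not pass.

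Il1b encodes interleukin-1 beta, the inflammatory cytokine of activated phagocytes. It ran from 5.45 to 6.78 in HAMS (median 6.10) and from 5.22 to 5.93 in LAMS (median 5.83), with 5 of 8 HAMS rats above every LAMS rat. HAMS minus LAMS was 0.33 ± 0.16 (limma, adjusted p = 0.145) and did not pass. In HAMSB it ran from 5.38 to 6.17 (median 5.61) and HAMSB minus HAMS was -0.37 ± 0.15 (adjusted p = 0.0768), with a 95% interval from -0.68 to -0.07. Within the 1 name style that these diets share, 5 HAMSB arrays averaged 5.53 and 8 HAMS arrays 6.07, a fall of 0.54 ± 0.18 in HAMSB (adjusted p = 0.0424), and with name style as a block the difference was -0.54 (adjusted p = 0.0137, where 30.8% of all genes passed). The lymphoid level moved with these calls, averaging 5.83 on those 5 HAMSB arrays and 7.43 on the 8 HAMS arrays. With it in the model, HAMSB minus HAMS for Il1b was -0.10 over all arrays (adjusted p = 0.745). Medians were 5.67 in HAW, 5.87 in LAW and 5.75 in CON.

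Adamdec1 encodes a secreted metalloprotease of the ADAM family. It ran from 8.50 to 9.99 in HAMS (median 8.93) and from 9.65 to 10.68 in LAMS (median 10.30). Of the 8 HAMS rats 5 lay below every LAMS rat, and of the 7 LAMS rats 5 lay above every HAMS rat. The means were 9.17 ± 0.62 in HAMS and 10.23 ± 0.35 in LAMS (SD), and Adamdec1 fell by 1.05 ± 0.24 (limma, adjusted p = 0.00837), a call that all 15 fits without 1 rat kept.

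In HAW Adamdec1 ran from 9.14 to 10.88 (median 10.32). Of the 8 HAW rats 6 lay above every HAMS rat, and the gene was 0.95 ± 0.23 higher in HAW (adjusted p = 0.0113), also in all 16 fits without 1 rat. With name style as a block this difference was 0.68 (adjusted p = 0.0783). In HAMSB it ran from 9.23 to 10.35 (median 9.58). HAMSB minus HAMS was 0.53 ± 0.23 (adjusted p = 0.0886) and HAMSB minus LAMS -0.52 ± 0.24 (adjusted p = 0.153), neither of which passed. Within the 1 shared name style HAMSB minus LAMS was -0.68 ± 0.16 on 5 against 3 arrays and passed (adjusted p = 0.0258, where 899 genes did), and HAMSB minus HAMS was 0.28 ± 0.25 (adjusted p = 0.439). With the lymphoid level in the model over all arrays HAMSB minus LAMS was -0.57 (adjusted p = 0.0293), and with name style as a block -0.40 (adjusted p = 0.442). LAW rats had a median of 10.03, and the CON rats had 9.67, 10.04, 10.05, 10.58 and 10.63. The order of means was LAMS, CON, HAW, LAW, HAMSB and HAMS, and the last step, 0.53, was the only one over the within-diet SD of 0.49.

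Genes that mark fibroblasts moved with Adamdec1, Il18, Duox2 and Tlr4. All 9 of that list reached the floor, its mean ran from 8.84 to 9.64 in HAMS and from 9.41 to 10.06 in LAMS, and 5 of the 9 fell and 0 rose in HAMS against LAMS, where 12.1% of all genes fell. Of the 9, 3 were called with name style as a block and 3 with the lymphoid level. Over the 43 rats, diet means removed, Adamdec1 and the list's mean had a Pearson correlation of 0.79 and a Spearman correlation of 0.78, points that also share the lymphoid level. The Pearson correlation of the list was 0.67 with Il18, 0.70 with Duox2 and 0.62 with Tlr4. This was not particular to fibroblasts. The absorptive colonocyte, goblet cell and smooth muscle lists also ran with Adamdec1, Il18, Duox2 and Tlr4. Their Pearson correlations lay between 0.36 (goblet cell with Tlr4) and 0.61 (absorptive colonocyte with Duox2). All 14 genes of the monocyte and macrophage list reached the floor, with a mean from 7.12 to 7.53 in HAMS and from 7.14 to 7.57 in LAMS and a Pearson correlation with Adamdec1 of 0.13. The part of these cells in the falls of Adamdec1 and Il18 was not tested.

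Nos2 encodes inducible nitric oxide synthase. It ran from 5.08 to 6.16 in HAMS (median 5.65) and from 5.04 to 5.33 in LAMS (median 5.21), both near the floor of 4.79. Of the 8 HAMS rats 6 lay above every LAMS rat and 1 LAMS rat lay below every HAMS rat. The means were 5.57 ± 0.35 in HAMS and 5.21 ± 0.10 in LAMS (SD), and Nos2 rose by 0.36 ± 0.12 (limma, adjusted p = 0.0426). The call was lost in 9 of 15 fits without 1 rat (LAMS replicates 1, 2, 3, 5 and 6 and HAMS replicates 2, 3, 4 and 8), with values between 0.27 and 0.38 and the highest adjusted p, 0.0861, without HAMS replicate 3. With name style as a block the difference was 0.24 (adjusted p = 0.204).

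The other diets had Nos2 from 5.04 to 5.86 in HAMSB (median 5.51), from 4.98 to 5.64 in HAW (median 5.32) and from 5.08 to 5.71 in LAW (median 5.46), and the CON rats had 4.93, 4.95, 5.07, 5.10 and 5.22. HAMSB minus LAMS was 0.25 ± 0.12 (adjusted p = 0.175), with 7 of 9 HAMSB rats above every LAMS rat. HAMSB minus HAMS was -0.11 with a 95% interval from -0.34 to 0.12.

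Duox2 encodes dual oxidase 2, the epithelial enzyme that releases hydrogen peroxide at the mucosal surface. Its diet means lay within 0.27 of each other, and the F test did not pass (adjusted p = 0.870). In HAMS it ran from 6.87 to 9.20 (median 7.80) and in LAMS from 7.56 to 8.65 (median 8.22), so HAMS rats held both the highest and the lowest values. HAMS minus LAMS was -0.20, with a 95% interval from -0.66 to 0.26. HAMSB rats lay between 7.86 and 8.45, with 5 HAMS rats below all of them and 2 above all of them. Medians were 8.39 in HAW, 8.16 in LAW and 8.10 in CON.

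Tlr4 encodes the lipopolysaccharide receptor. It ran from 7.56 to 9.17 in HAMS (median 8.17), from 7.94 to 8.86 in HAMSB (median 8.28) and from 8.34 to 9.45 in LAMS (median 8.96). HAMS minus LAMS was -0.56 ± 0.21 (limma, adjusted p = 0.0621) and HAMSB minus LAMS -0.53 ± 0.20 (adjusted p = 0.0878), so neither passed. HAMSB minus HAMS was 0.02, with a 95% interval from -0.37 to 0.41. In each of these diets 5 rats lay below every LAMS rat. With name style as a block HAMS minus LAMS was -0.29 (adjusted p = 0.324), and under another alternative fit it changed sign without passing. Tlr4 ran from 7.98 to 9.36 in HAW (median 8.83) and from 8.21 to 9.32 in LAW (median 8.97), and the CON rats had 8.33, 8.38, 8.66, 8.98 and 8.99. The F test over diets had an adjusted p of 0.0586.

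**Figure D2:**
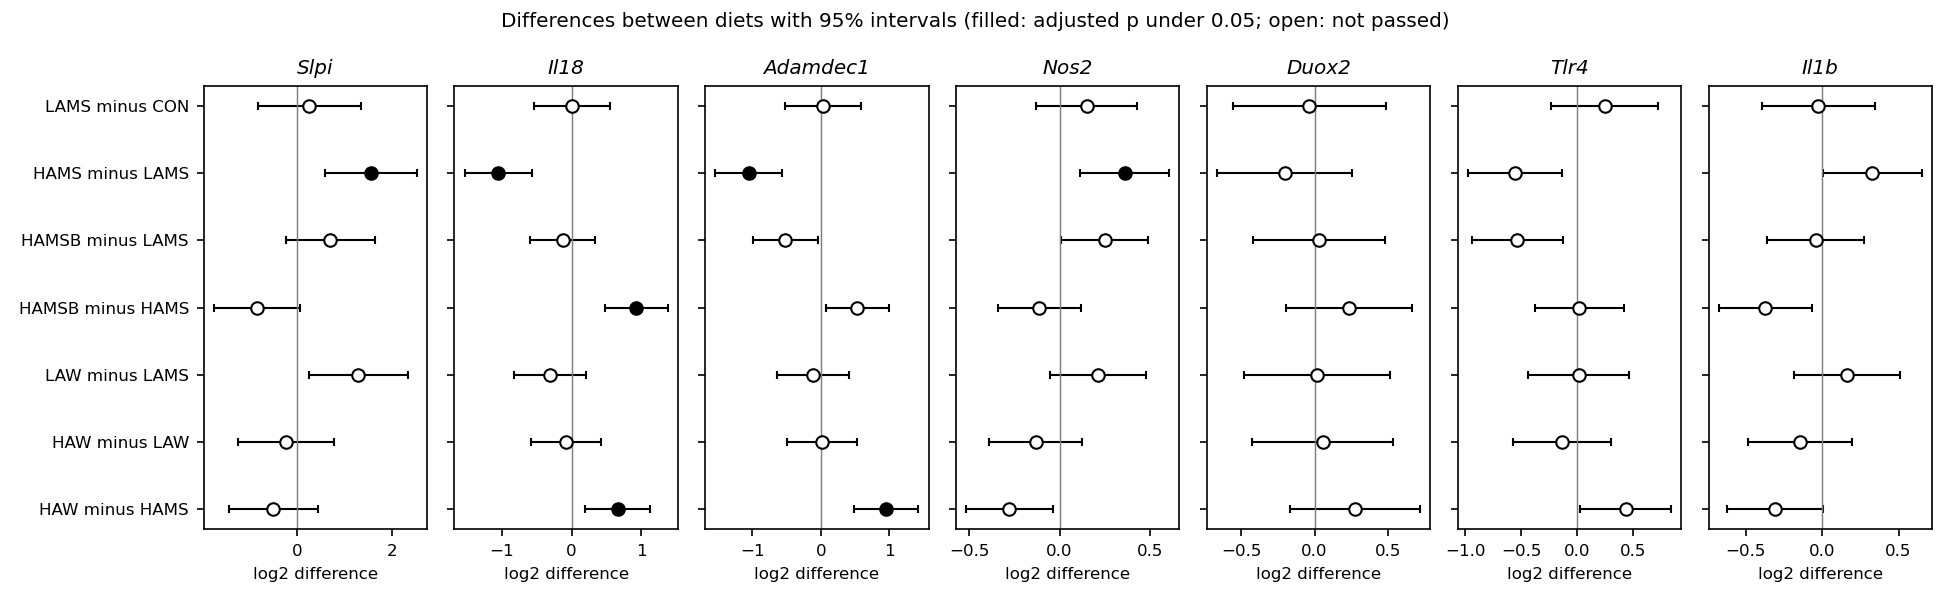
Difference between diets (log2) for the 7 tested genes in 7 comparisons, with 95% intervals. Filled points passed an adjusted p of 0.05 over all tested genes and open points did not. Filled points are confined to comparisons that contain HAMS: HAMS minus LAMS has 4, HAMSB minus HAMS has 1 and HAW minus HAMS has 2.

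Lcn2, Reg3b and Reg3g encode secreted antimicrobial proteins that colon inflammation is known to induce. All 43 values of Reg3b and of Reg3g lay under the floor, with highest values of 3.73 and 4.24. Lcn2 reached the floor on 17 of 43 arrays: 5 of 9 in HAMSB, 2 of 8 in HAW, 5 of 8 in HAMS, 2 of 6 in LAW, 2 of 7 in LAMS and 1 of 5 in CON. Lcn2 ran from 4.72 to 5.09 in HAMS (median 4.95) and from 4.42 to 4.97 in LAMS (median 4.77). In a fit without the floor, HAMS minus LAMS was 0.18 ± 0.10 for Lcn2 (limma, adjusted p = 0.202) and 0.12 ± 0.12 for Reg3g (adjusted p = 0.505). Reg3b ran from 2.86 to 3.73 in HAMS and from 2.30 to 3.06 in LAMS, a difference of 0.41 ± 0.13 (adjusted p = 0.0355) between values that were all under the floor. No other comparison of the 3 genes passed in that fit, where 11.7% of 14506 genes passed in HAMS minus LAMS.

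Neutrophils, which carry Lcn2 and use Nos2 and Il1b in inflammation, left little signal. Of 12 neutrophil markers 5 reached the floor, and S100a8, S100a9, Elane, Cxcr2, Fpr1, Mmp8 and Mmp9 were under it. Over the 5 that did, the mean was 5.80 ± 0.24 in HAMS and 5.62 ± 0.18 in LAMS (SD), with 0 of 5 called in HAMS minus LAMS, and their part in the results was not tested.

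Among the 7 tested genes, 6 followed the lymphoid level of the same array when diet was in the model, where 53.8% of all tested genes did (limma; 18.2% rising and 35.5% falling with it). Slpi rose by 0.40 ± 0.12 per unit of lymphoid level (adjusted p = 0.00409) and Il1b by 0.21 ± 0.03 (adjusted p = 5.1e-07). Il18 had a slope of -0.24 ± 0.06 (adjusted p = 0.000327), Adamdec1 -0.28 ± 0.05, Duox2 -0.28 ± 0.05 and Tlr4 -0.21 ± 0.05. Nos2 had a slope of -0.01 ± 0.03 (adjusted p = 0.862). The 6 slopes also passed with name style as a block, where 57.3% of all genes did.

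Single rats followed these slopes in part. HAMS replicates 1 and 5 had lymphoid levels of 5.50 and 5.75, the other 6 HAMS rats 7.27 or more. Adamdec1 was 9.99 and 9.89 in those rats, and Tlr4 9.00 and 9.17, the highest values of either gene in HAMS. Il18 did not order the same way: HAMS replicate 5 had 6.89, below the 7.49 of replicate 3, whose lymphoid level was 7.27 and whose Duox2, 9.20, was the highest of all rats. HAMS replicate 2 had the highest lymphoid level of all arrays, 8.80, together with the highest Slpi (9.42) and Il1b (6.78) and the lowest Duox2 (6.87) of the 43 rats. LAMS replicates 2, 3 and 4 had lymphoid levels of 7.61, 6.77 and 8.23, with Il18 at 7.96, 8.04 and 7.35 and Adamdec1 at 10.30, 10.32 and 9.90. The Il18 value of LAMS replicate 3 was the highest of its diet, against the direction of the slope.

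**Figure D3:**
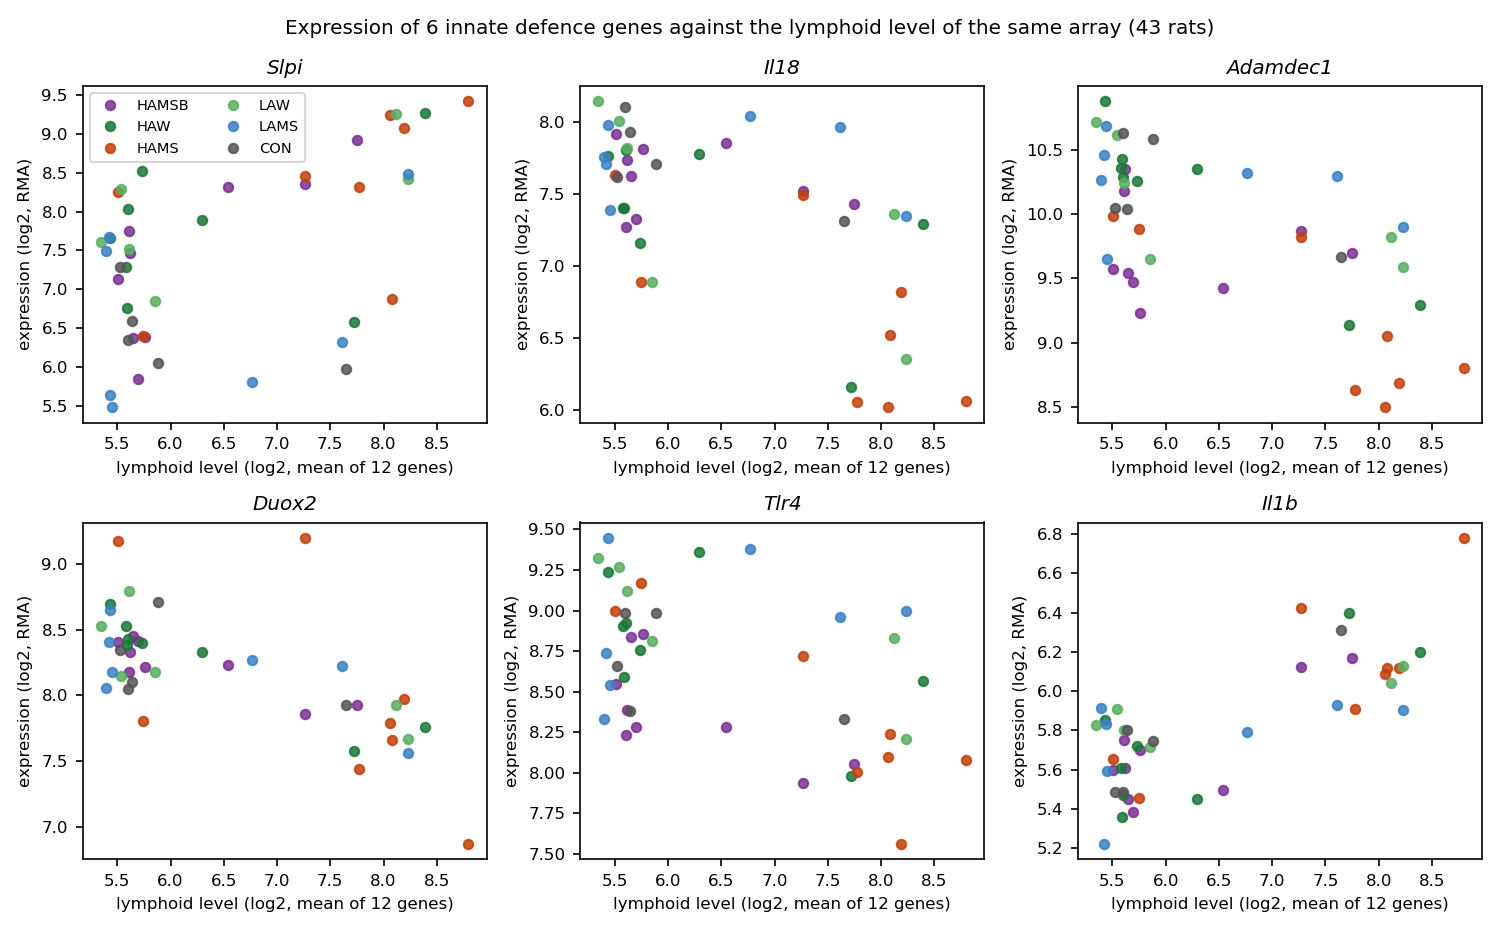
Expression (log2, RMA) of the 6 genes whose slope passed, against the lymphoid level (mean log2 value of 12 B cell and germinal centre genes) of the same array. Each point is 1 of 43 rats, coloured by diet. Slpi and Il1b lie higher at high lymphoid levels, with slopes of 0.40 and 0.21, and Il18, Adamdec1, Duox2 and Tlr4 lie lower.

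With the lymphoid level in the model, HAMS minus LAMS remained called for Il18 (-0.79, adjusted p = 0.0273) and Adamdec1 (-0.74, adjusted p = 0.0271) and was not called for Slpi (1.11, adjusted p = 0.100) and Nos2 (0.37, adjusted p = 0.0664), where 5.29% of all genes passed. With name style as a block instead, Slpi, Il18 (-0.80, adjusted p = 0.0405) and Adamdec1 (-0.80, adjusted p = 0.0445) passed, against 8.79% of all genes. With both in the model none of the 4 passed: Slpi was at 1.35 (adjusted p = 0.195), Il18 at -0.39 (adjusted p = 0.391), Adamdec1 at -0.29 (adjusted p = 0.455) and Nos2 at 0.21 (adjusted p = 0.534), where 0.776% of all genes passed. With the interquartile range of each array as a covariate, chosen after seeing the data, 0.0554% of all genes passed and again none of the 4, Slpi at 2.03 (adjusted p = 0.0724) and Il18 at -0.57 (adjusted p = 0.159).

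Within the single name style shared by both diets, 8 HAMS arrays stood against 3 LAMS arrays. Slpi differed by 1.37 ± 0.62 (adjusted p = 0.184), Il18 by -0.93 ± 0.33 (adjusted p = 0.103), Adamdec1 by -0.95 ± 0.33 (adjusted p = 0.102) and Nos2 by 0.31 ± 0.19 (adjusted p = 0.328). None of these passed, and the lymphoid level of those arrays averaged 7.43 in HAMS and 5.42 in LAMS. In the same style 5 HAMSB arrays stood against 8 HAMS arrays, and Il18 was 1.02 ± 0.26 higher in HAMSB (adjusted p = 0.0180, where 2035 genes passed), with mean lymphoid levels of 5.83 in HAMSB and 7.43 in HAMS. With the lymphoid level in the model over all arrays, HAMSB minus HAMS for Il18 was 0.62 (adjusted p = 0.0842), where 1.91% of all genes passed. For HAW minus HAMS the style left 3 against 8 arrays, with Il18 at 0.22 ± 0.37 (adjusted p = 0.874) and Adamdec1 at 0.77 ± 0.37 (adjusted p = 0.629).

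**Figure D4:**
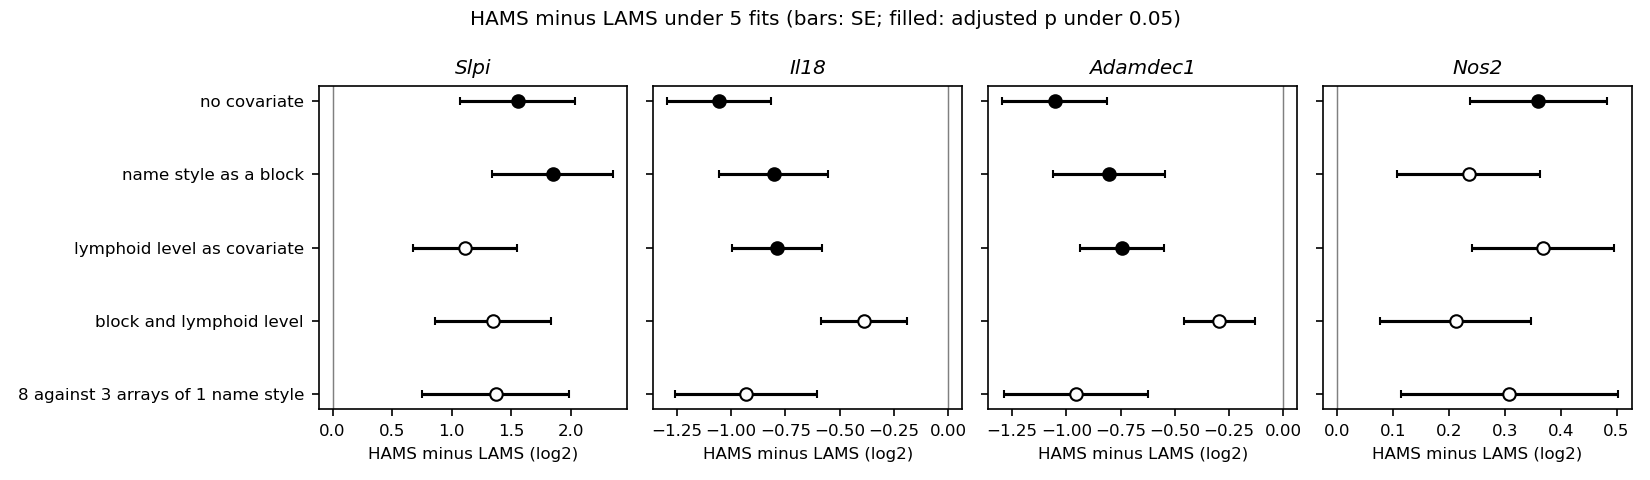
HAMS minus LAMS (log2) for the 4 genes called, under 5 fits from no covariate at the top to 8 HAMS against 3 LAMS arrays of 1 name style at the bottom. Bars are standard errors, and filled points passed an adjusted p of 0.05. All 20 points keep the direction of the fit without a covariate, and none is filled with block and lymphoid level together (Slpi 1.35, Il18 -0.39, Adamdec1 -0.29, Nos2 0.21).

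The genes were also compared with each other over the 43 rats after diet means were removed, as a description of points that share diet, name style and lymphoid level. Il18 correlated with Adamdec1 (Pearson r = 0.72), Duox2 (0.72) and Tlr4 (0.71), and Adamdec1 with Tlr4 (0.66) and Duox2 (0.64). Il1b ran against these 4 genes, with r between -0.47 and -0.39. Slpi lay apart from Il18 (-0.07) and Adamdec1 (-0.13) and was closest to Il1b (0.34), and Nos2 had no correlation beyond 0.25 with any of the others.

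The genes most like each member over the same 43 rats were taken by the 3 highest Pearson correlations. For Il18 they were Lrrfip2 (0.89), Nedd4l (0.87) and Pof1b (0.86), for Duox2 Ptprg (0.83), Myo5b (0.82) and Grhl2 (0.81), and for Tlr4 Dhrs9 (0.89), Tmtc3 (0.88) and Acvr2a (0.87). Adamdec1 was most like Cyp3a62 (0.90), Postn (0.90) and Hibadh (0.88). Il1b was most like Lyz2 (0.84), which encodes macrophage lysozyme, the receptor subunit gene Csf2rb (0.84) and Bcl2a1 (0.80). With the lymphoid level, Lyz2 had a Pearson correlation of 0.90, Csf2rb 0.91, Bcl2a1 0.72 and Il1b itself 0.73. Slpi reached only 0.72 with Rnf2, 0.67 with Rnf111 and 0.66 with Nubp1, and Nos2 0.64 with Wnt10b, 0.63 with Pou3f1 and 0.62 with Sdr9c7.

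Related genes were counted in 6 lists of the same pathways. In HAMS against LAMS the co-receptor genes of Tlr4 fell: Ly96 by 0.80 ± 0.19 (limma, adjusted p = 0.00965) and Cd14 by 0.52 ± 0.17 (adjusted p = 0.0390). The peptidoglycan sensor Nod1 fell by 0.30 ± 0.10, which made 3 of 21 tested pattern recognition genes lower and 0 higher, near the 12.1% of all genes that were lower, and the list's median was 0.05 against -0.09 over all genes. Ly96 averaged 5.03 ± 0.53 in HAMS, close to the floor. Of 9 genes of the interleukin-1 family and its receptors, Il18 and Sigirr (-0.30 ± 0.08), an inhibitory receptor, fell and 0 rose. Il18 was the only 1 of 8 inflammasome genes called. Of 10 antimicrobial genes Slpi and Hamp (0.33 ± 0.11), the hepcidin gene, rose and Pigr, which carries immunoglobulin A across the epithelium, fell by 0.46 ± 0.14. Of 12 oxidant genes Nos2 rose and Noxa1, an activator of NADPH oxidase 1, fell by 0.70 ± 0.17. None of 10 inflammatory cytokines and chemokines passed. With the lymphoid level in the model Cd14 (adjusted p = 0.135), Sigirr (0.0802), Nod1 (0.114), Pigr (0.102) and Hamp (0.100) were no longer called, and Ly96 (0.0342) and Noxa1 (0.0386) were. Under the name style block Cd14 was at -0.25 (adjusted p = 0.269), and Pigr (0.0747) and Hamp (0.359) were not called either.

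In HAMSB against HAMS 1 of 21 pattern recognition genes rose and 6 fell, where 14.5% of all genes rose and 2.58% fell. Among those that fell were Traf6 (-0.29 ± 0.08), Tlr2 (-0.32 ± 0.11, with a HAMSB mean of 4.82 near the floor) and the DNA sensor Tlr9 (-0.95 ± 0.33). The 1 that rose was Ly96 (0.52 ± 0.18, adjusted p = 0.0402), which is named here after its value was seen. The oxidase genes of phagocytes Ncf1 (-1.35 ± 0.44) and Cybb (-1.18 ± 0.40) fell and Noxa1 (0.45 ± 0.16) rose. Nlrp6, an epithelial inflammasome sensor, rose by 0.61 ± 0.17 beside Il18, and Naip6 fell by 0.51 ± 0.16. Il1rl1, the receptor of interleukin-33, rose by 0.49 ± 0.17, Wfdc2, a relative of Slpi, by 0.47 ± 0.15 and Ptgs2, the inducible cyclooxygenase, by 0.71 ± 0.22. With name style as a block Il1rl1 (limma, adjusted p = 0.130) and Noxa1 (0.0827) were not called. The other genes named for HAMSB minus HAMS were, where 30.8% of all genes passed. With the lymphoid level in the model 1 gene of these lists, Naip6, passed in HAMSB minus HAMS (adjusted p = 0.0346), and the lymphoid level averaged 6.15 ± 0.83 in HAMSB and 7.43 ± 1.19 in HAMS (SD).

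In HAW against HAMS the Tlr4 partners were again on the side of the other diet, Ly96 0.65 ± 0.19 and Cd14 0.60 ± 0.17 higher in HAW, as was the RNA sensor Tlr3 (0.63 ± 0.21), so 3 of 21 pattern recognition genes rose and 0 fell, near the 11% of all genes that rose. Il1rl1 (0.51 ± 0.17), Pigr (0.42 ± 0.13) and Ptgs2 (0.73 ± 0.22) rose. Hamp (-0.32 ± 0.11), Noxo1 (-0.37 ± 0.11), Ncf1 (-1.35 ± 0.45), the chemokine Cxcl1 (-0.29 ± 0.10) and Il12b (-0.35 ± 0.12, with a HAW mean of 4.66 under the floor) fell. Of these genes Ly96 and Ncf1 also passed with name style as a block, and Noxo1 and Ncf1 with the lymphoid level in the model. In HAMSB against LAMS 2 genes of the lists passed, both lower, where 4.65% of all genes were lower. They were Irak4 (-0.33 ± 0.10), a kinase below the Toll-like receptors, 1 of 21 pattern recognition genes, and Naip6 (-0.79 ± 0.17), 1 of 8 inflammasome genes. With name style as a block neither passed (limma, adjusted p = 0.170 and 0.0534). With the lymphoid level in the model both passed (adjusted p = 0.0339 and 0.00253). In LAMS minus CON, LAW minus LAMS and HAW minus LAW no gene of the 6 lists passed.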

How the data were processed

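Total RNA from distal colon (100 ng per rat) was labelled and hybridised to Affymetrix arrays, per the labels' protocols. The authors deposited log2 values of 29214 probe sets. The submitters' processing notes name RMA, which corrects background, gives the probe values of all arrays 1 distribution and then summarises the probes of a set. Its version is not given in the sources used here. Because probe values were brought to 1 distribution, differences are relative to the other genes of an array. The deposited probe set values still differed in spread between arrays, with interquartile ranges averaging 3.01 in HAMS and 3.21 in LAMS.

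Of the probe sets, 15310 had 1 symbol in the platform annotation, 323 several and 13581 none. Each symbol was represented by its probe set of highest mean, and a gene was tested when its median over 43 arrays reached 4.79. Array data carry no read depth, and the number of rats limits the precision. A linear model with 6 diet means was fitted to all genes with limma's lmFit and eBayes (limma 3.58.1, R 4.3.3), two-sided, with Benjamini-Hochberg adjustment over the 10828 tested genes and a threshold of 0.05. There were 8 comparisons beside the F test. The code was tested on simulated data. Python 3.11.15 and matplotlib 3.10.9 drew the figures. Arrays labelled HAM were taken as HAMS, which is how the series description spells it.

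The members, the gene lists and the tests were chosen with earlier results of these data known. Named beside the 10 members are up to 3 genes per related list and comparison, those of smallest p among the genes that passed, and the 3 genes most like each member. Alternatives were no filter, a stricter filter, a trended and robust prior, array weights, name style, replicate number and lymphoid level in the model, and leaving out each array. Array spread as a covariate and the fits within 1 name style were added after the data were seen. A second probe set per member could not be tried, since each has 1. Replicate numbers name different animals in each diet: same-numbered arrays of different diets had a median correlation of -0.05 over 94 pairs, diet means removed, so they were not taken as pairs. No arrays were identical (correlations 0.941 to 0.993).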

Additional observations from a re-analysis of the deposited data

Results flagged for a closer look

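Each of the 10 genes was examined in each of the 6 diets for a rat far from the others of its diet, 60 groups in all, of which chance alone is expected to mark about 1 in 20; 3 were marked. Il18 in HAW replicate 8 was 6.16, the lowest of 8, while the next lowest HAW rat had 7.16. That rat had a lymphoid level of 7.72, and without it HAW minus HAMS for Il18 was 0.83 in place of 0.66. Reg3b in HAMS replicate 6 was 3.73, the highest of 8, with the next at 3.25. Reg3b in LAW replicate 2 was 3.47, the highest of 6, with the next at 2.98. Both Reg3b values lie under the low-signal floor of 4.79.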

How the results depend on the processing

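Percentages in brackets are the share of all genes that passed under the same setting. Of the 7 genes 4 were called in the F test (31%). The count became 2 with name style as a block (12.9%), 0 with block and lymphoid level (5.22%) and 2 with array spread (14.1%). It was 5 with the lymphoid level alone (27.6%) and 6 with array weights (69.3%). HAMS minus LAMS (4 called, 14.2%) gave 2 with the lymphoid level (5.29%), 0 with block and lymphoid level (0.776%) and 0 with array spread (0.0554%). HAMSB minus LAMS (0 called, 6.84%) gave 4 with array weights (34.5%) and 2 with the lymphoid level (14%). HAMSB minus HAMS (1 called, 17%) gave 4 with array weights (35.1%) and 3 with name style as a block (30.8%). It gave 0 with the lymphoid level (1.91%) and 0 with block and lymphoid level (4.66%). HAW minus HAMS (2 called, 13.3%) gave 1 without the filter (9.82%), 1 with the trended and robust prior and 5 with array weights (43.7%). It gave 0 with name style (7.43%), 0 with the lymphoid level (2.84%), 0 with both (0.296%) and 0 with array spread (0.222%). The contrast of the wheat and maize amylose effects (0 called, 0.0277%) gave 3 with array weights (10.5%). Il18 in HAW minus HAMS turned to -0.049 with block and lymphoid level together. The cause of these changes was not tested.

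With replicate number as a block, HAMS minus LAMS called 2 genes in place of 4 (Slpi at an adjusted p of 0.0508 and Nos2 at 0.0700, limma) and HAW minus HAMS 1 in place of 2 (Il18 at 0.0578); it changed no other count by over 1.5 times. Leaving out 1 rat gave 4 to 5 called in the F test, 2 to 5 in HAMS minus LAMS, 0 to 1 in HAMSB minus LAMS, 1 to 3 in HAMSB minus HAMS, 1 to 5 in HAW minus HAMS (5 without HAW replicate 8, 4 without HAMS replicate 5), 0 to 2 in the test of the 2 amylose effects (2 without HAW replicate 8), and 0 in the other 3 comparisons. Over all tested genes those fits called 2509 to 4314 in the F test and 620 to 2413 in HAMS minus LAMS. They called 173 to 1382 in HAMSB minus LAMS, 922 to 2872 in HAMSB minus HAMS and 542 to 3109 in HAW minus HAMS. In the test of the 2 amylose effects they called 1 to 215.

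Of 62 recomputed values of called differences, F tests not counted, 36 passed again. Of 426 recomputed values that did not pass at first, 18 passed, 14 of them with array weights. A further 47 changed sign without passing, to values between -0.26 and 0.26. The largest difference that changed sign was the fall of Tlr4 in HAMS minus LAMS, -0.56 in the main fit. Signal near the floor limits Nos2 and Lcn2, and Reg3b and Reg3g were not measurable above it.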

Other observations

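Of 18 values that passed under an alternative alone, 14 did so with array quality weights, which give less weight to arrays that fit their group poorly. With weights Tlr4 was lower by 0.86 in HAMS (adjusted p = 0.00112, limma) and by 0.70 in HAMSB (adjusted p = 0.00166) than in LAMS, and 0.69 higher in HAW than in HAMS (adjusted p = 0.00359). The weights also raised the share of all genes called in HAMS minus LAMS to 37.4%, against 14.2% without them. With weights the amylose effects of wheat and maize differed for Slpi (-2.15, adjusted p = 0.0228), Il18 (1.09, adjusted p = 0.0154) and Adamdec1 (1.34, adjusted p = 0.00864), where 10.5% of all genes passed.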
